A study of Mus musculus with 2 samples.

Results

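Long-read RNA sequencing of the neonatal mouse adrenal gland was examined for 10 genes: 9 aldo-keto reductases (Akr1c18, Akr1b7, Akr1cl, Akr1b3, Akr1a1, Akr1b8, Akr1c12, Akr1c13 and Akr1c14) and Pik3c2g, a phosphoinositide kinase gene used as a marker of the X-zone. They were taken by gene name from the transcript tables of both libraries, out of 18053 annotated genes with at least 1 read. All 10 had reads in replicate 2 and 8 had reads in replicate 1, spread over 126 transcript models in each library. The 2 libraries, biological replicates 2 and 1, were made from adrenal glands of 4-day-old male B6CASTF1/J mice, a hybrid of C57BL/6J and CAST/EiJ, with no treatment or mutation named. They form 1 group, so the data hold no contrast between conditions, and any difference below is between these 2 libraries. The labels do not settle whether 2 animals were used. By the tissue labels, replicate 2 came from male 04 and replicate 1 from male 03, but the label of each library gives male 03, and the samples carry the same donor number. In a whole gland, fewer cells of a type and less RNA per cell cannot be told apart.

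Aldo-keto reductases use NADPH to reduce aldehydes and ketones, steroids and sugars among them. In the adrenal cortex, cleavage of the cholesterol side chain releases a reactive aldehyde, and several members of the family remove such aldehydes or modify the steroids themselves. The X-zone is an innermost cortical layer of the mouse, next to the medulla, that derives from the fetal cortex and regresses at puberty in males; Akr1c18 and Pik3c2g are known markers of it, and Akr1b7 is known from the corticotropin-dependent zona fasciculata.

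Replicate 2 held 810818 mouse reads and replicate 1 held 688436, so 1 read was worth 1.23 CPM in replicate 2, against 1.45 CPM in replicate 1 (CPM, reads per 1000000 mouse reads). Cortical markers were abundant in both: the 6 genes of the whole-cortex list, led by Cyp21a1, Cyp11a1 and Star, summed to 23674 CPM in replicate 2, against 33203 CPM in replicate 1. The 6 chromaffin markers, led by Chga, Chgb and Th, summed to 9304 CPM in replicate 2, against 12511 CPM in replicate 1. The 6 zona fasciculata markers, led by Hsd3b1, Cyp11b1 and Mrap and with Akr1b7 among them, summed to 9102 CPM in replicate 2, against 14434 CPM in replicate 1, and the 7 zona glomerulosa markers to 2512 CPM in replicate 2, against 3902 CPM in replicate 1. To be called, a gene needed a p below 0.05 in Fisher's exact test after Benjamini-Hochberg adjustment over all genes tested, and a change of 1 or more on the log2 scale. Of the marker lists with reads in both libraries, that of the liver differed most by the ratio of its sums. All 8 of its genes (Alb, Apoa1 and Kng1 the most abundant) were called higher in replicate 2, where 2.26% of all genes tested were. They had a sum of 11715 CPM there against 228 CPM in replicate 1. In the other marker lists, Col1a1 was called higher in replicate 2, 1 of 3 capsule and stroma markers tested. Akr1c18, Cyp11b2, Agtr1b and Pecam1 were called lower, where 0.967% of all genes were called lower. They were 1 of 1 X-zone marker tested, 2 of 7 zona glomerulosa markers and 1 of 3 endothelial markers. The other endothelial markers, Plvap (log2 ratio −0.20) and Egfl7 (0.21), were not called. The 3 together summed to 627 CPM in replicate 2, against 691 CPM in replicate 1. The 3 capsule and stroma markers summed to 2727 CPM in replicate 2, against 1634 CPM in replicate 1, and the 5 fat markers to 2332 CPM in replicate 2, against 1790 CPM in replicate 1. Of the 4 kidney markers, 3 had reads in replicate 2 (5 in sum) and 2 had reads in replicate 1 (25 in sum); the gonadal genes Cyp17a1 and Insl3 had 2 reads each in replicate 2 and 0 in replicate 1. The part of these other cell types in the results below was not tested.

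The 10 genes together made up 3896 CPM in replicate 2, against 6477 CPM in replicate 1. Akr1cl was the most abundant in both libraries and gave 57.5% of these reads in replicate 2 and 53.8% in replicate 1. Akr1c18 came next with 18.4% in replicate 2 and 29.7% in replicate 1, and Akr1a1 followed with 13.9% in replicate 2 and 10.6% in replicate 1. These levels count reads and are not divided by transcript length, since a long read runs along one transcript. Copies made in amplification and a bias by transcript length were not tested, so the order is one of reads.

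Akr1c18 encodes the 20-alpha-hydroxysteroid dehydrogenase that inactivates progesterone, and lies on chromosome 13 (4132615 to 4150654, minus strand, mm10; ENSMUSG00000021214.14). It had 582 reads in replicate 2 and 1326 in replicate 1, which is 718 CPM in replicate 2, against 1926 CPM in replicate 1, with exact Poisson 95% intervals of 661 to 779 CPM in replicate 2 and 1824 to 2033 CPM in replicate 1. The intervals, which cover counting error only, did not overlap. It was the 1 member called different between the libraries: it was lower in replicate 2 by a log2 ratio of −1.42 (counting SE 0.072; Fisher's exact test with Benjamini-Hochberg adjustment over 8276 genes, adjusted p = 2.75e-93). So 1 of the 7 members tested was called lower, where 0.967% of all genes tested were; in either direction 3.23% of all genes were called. The test sets 1 library against 1 library with counting error alone, and says nothing of the spread between animals.

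**Figure D1:**
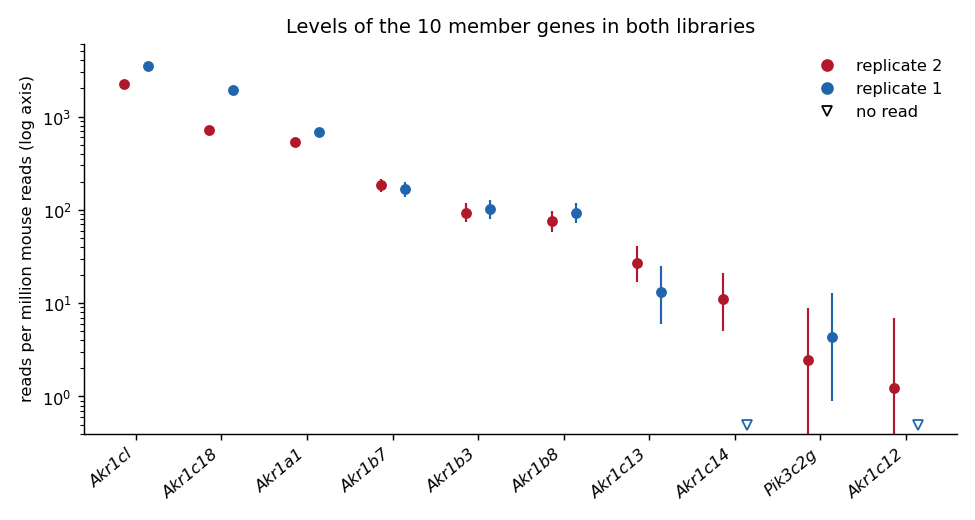
Level of each of the 10 genes in replicate 2 (red, left) and replicate 1 (blue, right), in CPM on a log axis, with exact Poisson 95% intervals; an open triangle stands for no read. Akr1c18 shows the widest gap among the abundant genes, 718 CPM in replicate 2 against 1926 CPM in replicate 1, while Akr1b7, Akr1b3 and Akr1b8 have overlapping intervals.

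Read for read, Akr1c18 was also lower against each cortical gene set beside it in the same library: Akr1cl, Cyp21a1, Cyp11b1 and Akr1b7. Per Akr1cl read there were 0.320 Akr1c18 reads in replicate 2 and 0.553 in replicate 1, a log2 ratio of −0.79 (95% interval −0.95 to −0.62). Per read of Cyp21a1, the 21-hydroxylase gene of the whole cortex, the log2 ratio was −0.51 (−0.66 to −0.36), and per read of Cyp11b1, the 11-beta-hydroxylase gene of the zona fasciculata, it was −0.77 (−0.93 to −0.61). Each of these ratios is smaller in size than the −1.42 in CPM, since Akr1cl (−0.64), Cyp21a1 (−0.91) and Cyp11b1 (−0.65) had lower levels in replicate 2 too. The ratio to Akr1b7 was wider, with 3.91 Akr1c18 reads per Akr1b7 read in replicate 2 and 11.5 in replicate 1 (log2 ratio −1.56, −1.94 to −1.18). Of the 7 zona glomerulosa markers, 2 were themselves called lower in replicate 2 and 0 higher, where 0.967% of all genes were called lower. These were Cyp11b2 (log2 ratio −1.23 in CPM) and Agtr1b (−2.21, from 4 reads in replicate 2 and 17 in replicate 1). Read ratios of Akr1c18 to them were not taken.

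The other X-zone markers were close to the limit of detection. Pik3c2g, a class II phosphoinositide kinase gene on chromosome 6 (139587221 to 139969284), had 2 reads in replicate 2 and 3 in replicate 1. Thrb, the thyroid hormone receptor beta gene, had 3 reads in replicate 2 and 1 in replicate 1. At this depth 0 reads would allow up to 3.70 CPM in replicate 2, against 4.36 CPM in replicate 1, each being the value of 3 reads, and with fewer than 20 reads over both libraries neither gene was tested. The X-zone signal of these libraries therefore rests on Akr1c18 alone, which supplied 582 of the 587 reads of the 3 markers in replicate 2 and 1326 of 1330 in replicate 1.

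Akr1cl, a C-like member of the family on chromosome 1 (65012689 to 65032759, minus strand), ranked 15th of all genes by mean level. It had 1818 reads in replicate 2 and 2398 in replicate 1, or 2242 CPM in replicate 2, against 3483 CPM in replicate 1. The log2 ratio of −0.64 (counting SE 0.045) passed the p threshold (Fisher's exact test, adjusted p = 8.84e-44) but not the size threshold, so it was not called. Per Cyp21a1 read, Akr1cl was higher in replicate 2, with 0.231 reads there and 0.191 in replicate 1 (log2 ratio 0.28, 95% interval 0.18 to 0.37).

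Akr1b7, which reduces the isocaproaldehyde released in steroid synthesis, lies on chromosome 6 (34412334 to 34423142, plus strand). It had 149 reads in replicate 2 and 115 in replicate 1, or 184 CPM in replicate 2, against 167 CPM in replicate 1. The intervals overlapped and the log2 ratio was 0.14 (counting SE 0.18; Fisher's exact test, adjusted p = 0.787). The ratio of Akr1c18 to Akr1b7 reads given above sets a single gene of each zone against the other. Its interval does not include 0. The other zona fasciculata markers of the list all had negative log2 ratios: −0.73 for Hsd3b1, −0.65 for Cyp11b1, −0.44 for Mc2r, −0.32 for Mrap and −0.26 for Abcb1b. The ratio to Akr1b7 is therefore one between genes and not between zones.

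Akr1a1, the aldehyde reductase that in mice also serves ascorbate synthesis, lies on chromosome 4 (116636510 to 116651680). It had 438 reads in replicate 2 and 474 in replicate 1, or 540 CPM in replicate 2, against 689 CPM in replicate 1 (log2 ratio −0.35; Fisher's exact test, adjusted p = 0.00557). This passed on p alone and was not called, and the p no longer passed with TMM factors (adjusted p = 0.0517), with DESeq2 size factors (0.108) or from known models alone (0.0873). On p alone, 3 of the 7 members tested were lower in replicate 2, against 4.1% of all genes; in either direction 7.93% of all genes passed on p alone.

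Akr1b3, the aldose reductase gene of the polyol pathway (chromosome 6, 34302434 to 34317478), had 93.7 CPM in replicate 2, against 102 CPM in replicate 1, from 76 reads in replicate 2 and 70 in replicate 1. Akr1b8, which reduces retinal and other aldehydes (chromosome 6, 34354119 to 34368463), had 76.5 CPM in replicate 2, against 93.0 CPM in replicate 1, from 62 reads in replicate 2 and 64 in replicate 1. The log2 ratio was −0.12 for Akr1b3 (counting SE 0.24; Fisher's exact test, adjusted p = 0.911) and −0.28 for Akr1b8 (counting SE 0.26; adjusted p = 0.640), neither past the threshold. Akr1b7, Akr1b8 and the neighbouring Akr1b10 are alike in 84.8% to 89.2% of their coding bases, so reads could in part be assigned to the wrong one of them.

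The other genes of the Akr1c cluster on chromosome 13 had few reads. Akr1c13 had 22 reads in replicate 2 and 9 in replicate 1 (27.1 CPM in replicate 2, 13.1 CPM in replicate 1; log2 ratio 1.03, Fisher's exact test, adjusted p = 0.321). Akr1c12, with 96.2% of its coding bases shared with Akr1c13, had 1 read in replicate 2 and 0 in replicate 1, and the 2 genes' reads may not be told apart fully. Akr1c14, the 3-alpha-hydroxysteroid dehydrogenase gene, had 9 reads in replicate 2, all of its complete model, and 0 in replicate 1, which allows up to 4.36 CPM there by the same limit of 3 reads. Akr1c14 and Akr1c12 had fewer than 20 reads and were not tested, and the liver markers were 51.4 times as high in replicate 2 as in replicate 1 by their sum.

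**Figure D2:**
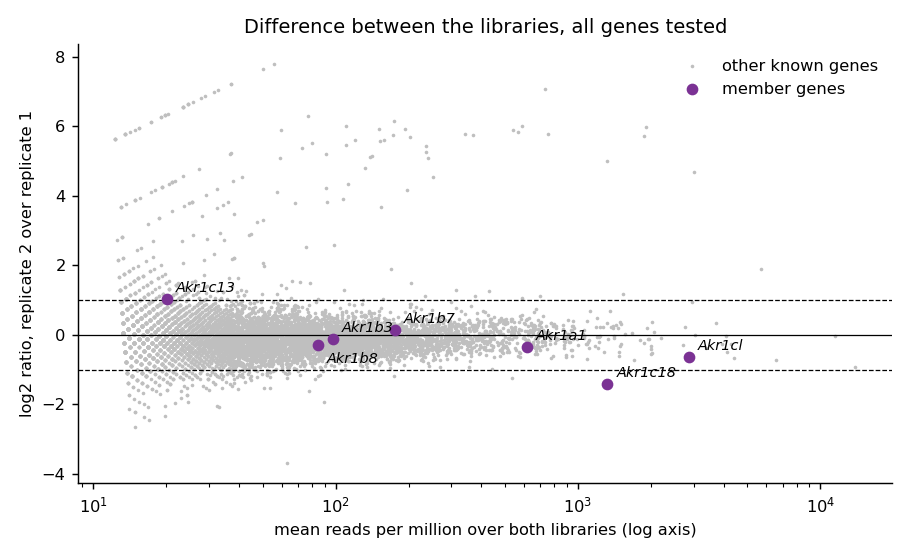
Log2 ratio of replicate 2 over replicate 1 against the mean level over both libraries, in CPM on a log axis, for the 8276 genes tested (grey) and the 7 members among them (purple); dashed lines mark a log2 ratio of 1 and −1. Akr1c18 lies below the lower line at −1.42, Akr1c13 sits near the upper line at 1.03 without passing the test, and the median of all genes is −0.10.

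The reads of Akr1c18 and Akr1cl fell into complete transcripts and one recurrent kind of partial transcript. Each read was assigned to a model that is known (an annotated chain of splice sites), an incomplete match (a stretch of an annotated chain), a new combination of known splice sites, one with a new splice site, or genomic. In Akr1c18, 42.1% of reads were incomplete in replicate 2 (245 of 582; Wilson 95% interval 38.1% to 46.1%) and 43.1% in replicate 1 (571 of 1326; 40.4% to 45.7%). In Akr1cl, 45.5% were incomplete in replicate 2 (828 of 1818; 43.3% to 47.8%) and 37.1% in replicate 1 (889 of 2398; 35.2% to 39.0%). Over 2813 genes with at least 50 reads in each library the median was 5.44% in replicate 2 and 4.29% in replicate 1. A share as high as that of Akr1c18 was found in 3.13% of these genes in replicate 2 and 2.56% in replicate 1. The other 4 members with at least 50 reads in each library stood nearer the median, with 6.71% in replicate 2 and 0.870% in replicate 1 for Akr1b7, 3.20% in replicate 2 and 3.38% in replicate 1 for Akr1a1, and 1.43% to 4.69% for Akr1b3 and Akr1b8. Akr1c13, with fewer reads, did not: 9 of its 22 reads were incomplete in replicate 2 and 5 of 9 in replicate 1.

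The incomplete share of Akr1c18 differed by −0.97 points between the libraries (Fisher's exact test, adjusted p = 1), and its partial and its complete transcripts each had fewer CPM in replicate 2. That of Akr1cl was 8.47 points higher in replicate 2 (Fisher's exact test, adjusted p = 2.65e-06), which passed on p alone but was under the 10 points that a call needed. None of the 6 members with enough reads was called, where 3.16% of all genes were, and 4.05% passed on p alone. Among complete models alone, usage of the leading model was also called for none of these 6 (0.431% of all genes); Akr1cl-201 took 87.6% in replicate 2 and 91.5% in replicate 1 (Fisher's exact test, adjusted p = 0.181).

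**Figure D3:**
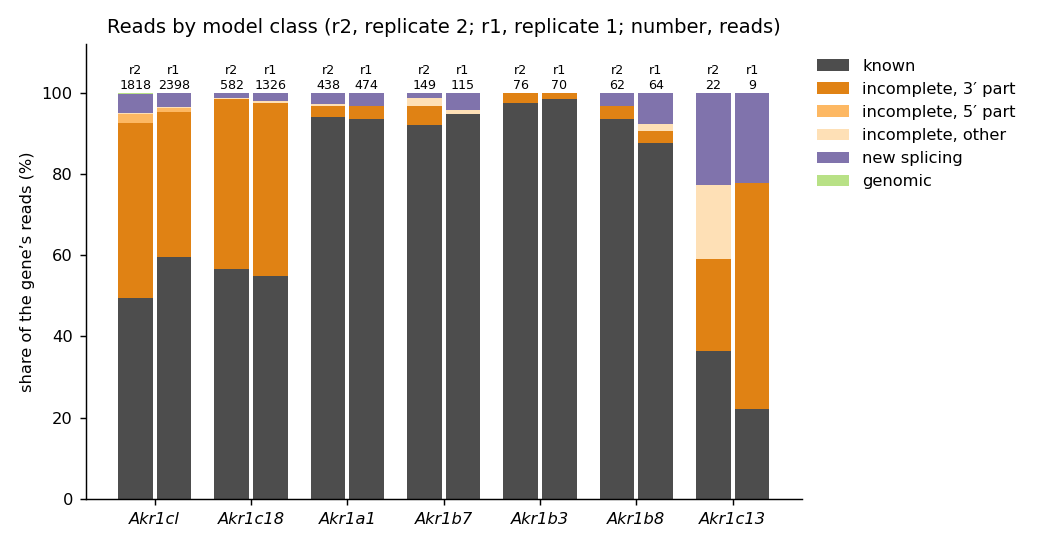
Share of each gene's reads by model class, for the 7 members with at least 20 reads over both libraries; in each pair of bars replicate 2 (r2) is left and replicate 1 (r1) right, with the number of reads above. Incomplete matches holding the 3′ part (dark orange) take 41.9% of Akr1c18 reads in replicate 2 and 42.8% in replicate 1, but 4.70% of Akr1b7 reads in replicate 2 and 0% in replicate 1.

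Akr1c18 reads came almost wholly as 3 models. The complete 9-exon Akr1c18-201 of 1200 bases had 285 reads in replicate 2 and 643 in replicate 1, which is 49.0% of the gene in replicate 2 and 48.5% in replicate 1. A 5-exon model of 704 bases (4132615 to 4142249) that holds only exons 5 to 9 had 235 reads in replicate 2 and 556 in replicate 1, or 40.4% of the gene in replicate 2 and 41.9% in replicate 1. The 8-exon Akr1c18-202 had 44 reads in replicate 2 and 84 in replicate 1. In both libraries the complete model led and the 5-exon model came next. Of 26 distinct models of the gene over both libraries, 13 had 1 read in all.

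Akr1cl had the same pattern with more variety, in 99 distinct models. The complete 10-exon Akr1cl-201 of 1761 bases had 861 reads in replicate 2 and 1380 in replicate 1 (47.4% of the gene in replicate 2, 57.5% in replicate 1). A 5-exon model of 1103 bases with exons 6 to 10 alone had 599 reads in replicate 2 and 663 in replicate 1 (32.9% in replicate 2, 27.6% in replicate 1). A 2-exon model with exons 9 and 10 had 152 reads in replicate 2 and 163 in replicate 1, and the known 9-exon Akr1cl-206 had 34 in replicate 2 and 43 in replicate 1. Some reads kept the 5′ end and lacked the 3′ end, 40 in replicate 2 and 24 in replicate 1. Most of those in replicate 2 followed a 4-exon model that runs past exon 4 into the next intron and stops at 65023160 (30 reads in replicate 2, 10 in replicate 1). A new 9-exon combination without the 78-base exon 5 had 12 reads in replicate 2 and 3 in replicate 1.

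**Figure D4:**
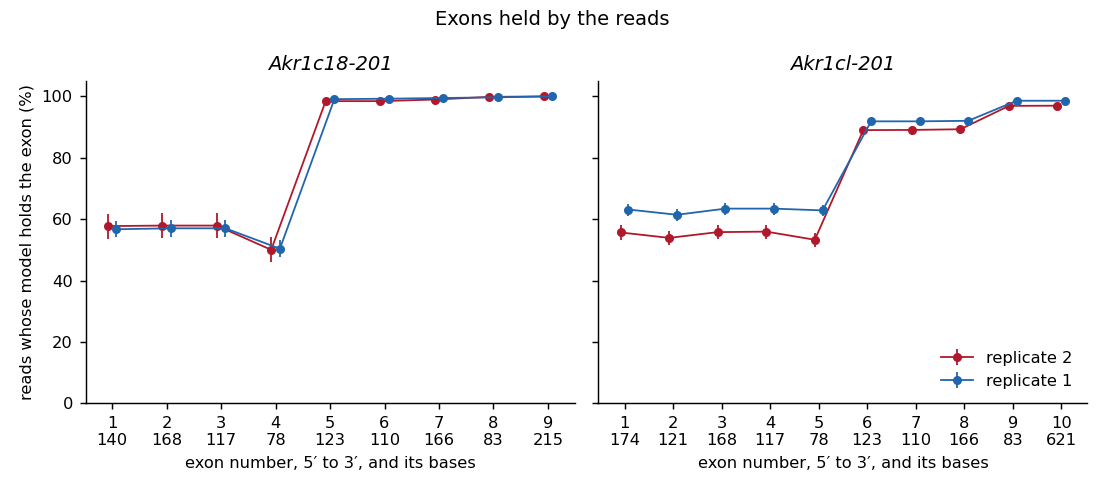
Share of reads whose model holds each exon of Akr1c18-201 (left panel) and Akr1cl-201 (right panel), 5′ to 3′, with Wilson 95% intervals, in replicate 2 (red) and replicate 1 (blue); genomic models are left out. Between exons 4 and 5 of Akr1c18 the share steps up to 98.5% in replicate 2 and 99.1% in replicate 1, and Akr1cl steps at its exon 6 to 89.0% in replicate 2 and 91.9% in replicate 1.

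The step lay at the same exon of the family in both genes. From the second to the fifth coding exon, Akr1c18, Akr1cl, Akr1c13 and Akr1c14 are annotated with 168, 117, 78 and 123 bases in that order. The 123-base exon is exon 5 in Akr1c18 and Akr1c13 and exon 6 in Akr1cl. Most reads of incomplete matches holding the 3′ part began there in these 3 genes. Of the reads in such matches, 96.3% began there in Akr1c18 in replicate 2 (235 of 244) and 98.1% in replicate 1 (556 of 567). In Akr1cl 78.1% did in replicate 2 (612 of 784) and 78.6% in replicate 1 (675 of 859), and most of the rest began in the 83-base exon 9, 155 reads in replicate 2 and 164 in replicate 1. In Akr1c13, 4 of 5 such reads began there in replicate 2 and 4 of 5 in replicate 1. Left out of this count are 4 Akr1c13 reads of other incomplete matches in replicate 2, so it does not cover all its incomplete reads. Exons 1 to 4 of Akr1c18 and 1 to 5 of Akr1cl were each the start of at most 8 reads of matches holding the 3′ part in a library.

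Genes with an exon of the same length did not all share the start. In Akr1d1, the steroid 5-beta-reductase gene, which is not a member, 1 of 22 such reads began in the 123-base exon in replicate 2 and 0 of 20 in replicate 1; 14 of 22 in replicate 2 and 13 of 20 in replicate 1 began in exon 2. In Akr1b7 it was 2 of 7 in replicate 2, with no read of this class in replicate 1. Other incomplete matches were left out of these counts. They held, among others, 9 reads of Akr1d1, 3 of Akr1b7 and 4 of Akr1c20 in replicate 2. In replicate 1 they held 1 of Akr1b7 and 3 of Akr1b10. Where reads of matches holding the 3′ part were fewer still, some began in this exon. In Akr1b8 these were both of 2 in replicate 2 and 1 of 2 in replicate 1. In Akr1b10 they were both of 2 in replicate 2 and 0 of 1 in replicate 1. The 1 of Akr1c6 in replicate 2 and the 1 of Akr1c19 in replicate 1 did too. None of the 2 of Akr1b3 in replicate 2 or the 1 in replicate 1 did, nor any of the 3 of Akr1e1 or the 1 of Akr1c20, all in replicate 2. Over the 86 genes where both libraries held 50 or more such reads, the leading model took a median of 66.0% of them in replicate 2 and 73.4% in replicate 1; Akr1c18 exceeded this at 96.3% in replicate 2 and 98.1% in replicate 1, a share reached by 12.8% of these genes in replicate 2 and 10.5% in replicate 1. Akr1cl was nearer the median at 76.4% in replicate 2 and 77.2% in replicate 1, a share reached by 43.0% of these genes in replicate 2 and 41.9% in replicate 1. Akr1c18 had 4 such models in replicate 2 and 5 in replicate 1, of which 4 in each library begin exactly at an annotated exon boundary, so where inside the exon a read began cannot be read from the models.

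**Figure D5:**
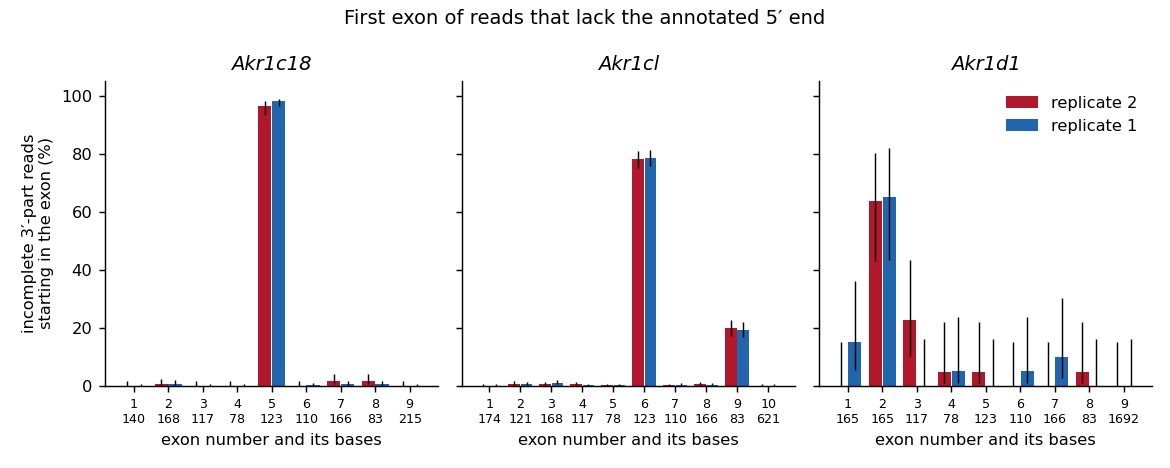
First exon of reads in incomplete matches holding the 3′ part, as a share of those reads, for Akr1c18, Akr1cl and Akr1d1. Replicate 2 is red (left bars) and replicate 1 blue (right bars), with Wilson 95% intervals. Both abundant members peak at the 123-base exon, 96.3% in replicate 2 and 98.1% in replicate 1 for Akr1c18, while Akr1d1 peaks at exon 2 with 14 of 22 reads in replicate 2 and 13 of 20 in replicate 1.

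The 123-base exon is coding throughout (GENCODE transcripts on mm10, each 5′ to 3′ on its own strand). Its sequence is given for the 3 members in which at least 4 reads of matches holding the 3′ part began there in a library. In each of them these were most of such reads. Akr1d1 is added, in which 1 of 22 did in replicate 2 and 0 of 20 in replicate 1. Capitals mark the 96 bases that Akr1c18, Akr1cl and Akr1c13 share, of which Akr1d1 holds 81. The 96 were taken from those 3 genes, so Akr1d1 could only hold as many or fewer. Over the whole coding sequence Akr1c18 shares 60.6% of aligned bases with Akr1d1, against 73.9% with Akr1c13. In this exon Akr1c13 matches Akr1d1 at 97 of 123 bases and Akr1c18 at 100.
Akr1c18 exon 5, chr13:4142127-4142249, minus strand: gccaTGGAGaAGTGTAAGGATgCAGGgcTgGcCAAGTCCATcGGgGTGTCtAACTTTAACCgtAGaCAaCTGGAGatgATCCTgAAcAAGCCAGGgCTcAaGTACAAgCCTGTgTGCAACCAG
Akr1cl exon 6, chr1:65021383-65021505, minus strand: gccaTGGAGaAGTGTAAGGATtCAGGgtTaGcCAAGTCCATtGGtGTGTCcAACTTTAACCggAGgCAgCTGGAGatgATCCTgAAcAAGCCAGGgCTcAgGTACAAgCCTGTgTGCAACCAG
Akr1c13 exon 5, chr13:4196989-4197111, plus strand: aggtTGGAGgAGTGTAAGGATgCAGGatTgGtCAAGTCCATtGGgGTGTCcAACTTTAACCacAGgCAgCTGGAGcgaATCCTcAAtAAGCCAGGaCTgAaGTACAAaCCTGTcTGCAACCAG
Akr1d1 exon 5, chr6:37554482-37554604, plus strand: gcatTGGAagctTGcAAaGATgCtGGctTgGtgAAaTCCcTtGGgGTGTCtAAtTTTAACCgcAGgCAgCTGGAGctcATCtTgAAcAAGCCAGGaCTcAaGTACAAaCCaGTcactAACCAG

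Akr1c18 and Akr1cl are identical at 113 of these 123 bases (91.9%), the highest share of any of their coding exons of equal length; the next is the 78-base exon at 85.9%, and the others lie between 71.1% and 79.1%. Over the whole coding sequence they share 77.5% of aligned bases. In both genes the exon opens with GCCATGGAG, whose ATG at base 4 is in the reading frame, and 522 coding bases remain from the exon's first base, of 969 in Akr1c18 and 966 in Akr1cl. The same 9 bases open the exon of Akr1b7, Akr1b10, Akr1e1 and Akr1c6, in which partial reads were few. The exon of Akr1c6 is about as alike, with 90.2% of its bases shared with Akr1c18 and 91.1% with Akr1cl. Akr1c6 had 18 reads, all in replicate 2. Of these, 17 were of the complete model and the 1 partial read began in this exon. The part of the exon's sequence in the partial reads was not tested. Akr1c13 opens with AGGTTGGAG and has its first ATG at base 20, out of frame.

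A second feature of Akr1c18 was the loss of the 78-base exon 4, which precedes the 123-base exon. Of reads with exons on both sides, 13.6% lacked it in replicate 2 (46 of 337; Wilson 95% interval 10.4% to 17.7%) and 11.6% in replicate 1 (88 of 756; 9.55% to 14.1%). Of these, 44 in replicate 2 and 84 in replicate 1 followed the annotated Akr1c18-202, whose coding sequence of 891 bases is 78 bases shorter than that of Akr1c18-201. The matching exon 5 of Akr1cl was absent from 1.93% of such reads in replicate 2 (19 of 983; 1.24% to 3.00%) and 0.199% in replicate 1 (3 of 1509; 0.0676% to 0.583%), and neither interval reaches that of Akr1c18. No read of Akr1b7 (0 of 141 in replicate 2, 0 of 114 in replicate 1), Akr1b3 or Akr1b8 skipped its 78-base exon. In Akr1cl exon 2, where its coding sequence begins, was the exon most often skipped, by 3.79% of spanning reads in replicate 2 (38 of 1002) and 3.12% in replicate 1 (47 of 1507). The 78-base exons of both genes follow, with capitals for the 67 bases they share; the last difference is at base 43, and the 35 bases after it are identical.
Akr1c18 exon 4, chr13:4143218-4143295, minus strand: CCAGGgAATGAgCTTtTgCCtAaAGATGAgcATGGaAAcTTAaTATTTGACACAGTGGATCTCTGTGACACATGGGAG
Akr1cl exon 5, chr1:65021919-65021996, minus strand: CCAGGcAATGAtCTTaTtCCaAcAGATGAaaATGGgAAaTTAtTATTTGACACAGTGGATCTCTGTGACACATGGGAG

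The remaining members had 1 dominant complete transcript each. Akr1a1-201 had 410 of 438 reads in replicate 2 and 442 of 474 in replicate 1, and a new combination that leaves out the 120-base exon 3 had 7 reads in replicate 2 and 9 in replicate 1. Akr1b7-201 had 137 of 149 reads in replicate 2 and 109 of 115 in replicate 1. Akr1b3-201 had 72 of 76 in replicate 2 and 67 of 70 in replicate 1, and Akr1b8-201 58 of 62 in replicate 2 and 56 of 64 in replicate 1. Akr1c13 departed from this, with 8 of 22 reads in replicate 2 and 2 of 9 in replicate 1 in the complete Akr1c13-201. The few reads of Pik3c2g were 1 of a known model and 1 genomic in replicate 2, and 2 lacking the 3′ part and 1 with a new splice site in replicate 1; the 1 read of Akr1c12 was a partial match.

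The promoters of 2 members that mark cortical zones are shown: Akr1c18, which was called between the libraries, and Akr1b7, which was not. Any bearing of the sequence on that difference was not tested. Each is the 250 bases before the RefSeq start (GRCm38.p6), in lower case. RefSeq windows were found for 9 of the 10 members. The windows overlap the annotated first exons of Akr1c18-201 (which reaches 4150654) and Akr1b7-201 (which begins at 34412334). AGGTCA, the core of the half-site bound by the cortical factor NR5A1, is in capitals on either strand.
Akr1c18, chr13:4150647-4150896, minus strand: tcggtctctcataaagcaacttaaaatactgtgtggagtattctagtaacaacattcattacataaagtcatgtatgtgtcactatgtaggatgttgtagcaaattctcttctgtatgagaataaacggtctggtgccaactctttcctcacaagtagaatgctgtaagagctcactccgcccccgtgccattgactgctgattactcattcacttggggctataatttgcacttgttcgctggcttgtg
Akr1b7, chr6:34412112-34412361, plus strand: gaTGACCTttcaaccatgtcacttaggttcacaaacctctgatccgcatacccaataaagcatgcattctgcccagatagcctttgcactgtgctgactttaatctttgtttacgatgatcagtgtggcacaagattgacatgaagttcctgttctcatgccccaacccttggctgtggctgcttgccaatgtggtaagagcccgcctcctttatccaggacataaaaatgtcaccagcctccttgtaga

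The motif stood once in the Akr1b7 window, on the opposite strand 248 bases before the start, and in none of the other 8 members' windows; 14.02% of 32851 windows of this length held it on either strand. The letters TATAAA were searched on the sense strand and stood in none of the 9 windows, against 7.59% of all windows. A match is only a run of letters, and its absence says nothing about a factor.

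Outside the members, 9 of 11 aldo-keto reductase genes of a set list had reads in replicate 2 and 8 in replicate 1, and together they made up 477 CPM in replicate 2, against 585 CPM in replicate 1. Akr1d1 led with 240 CPM in replicate 2, against 296 CPM in replicate 1, followed by the aldehyde reductase gene Akr7a5 with 91.3 CPM in replicate 2, against 131 CPM in replicate 1. Akr1e1 had 44.4 CPM in replicate 2, against 74.1 CPM in replicate 1, and Akr1b10 45.6 CPM in replicate 2, against 61.0 CPM in replicate 1. None of the 5 tested was called, where 3.23% of all genes were, and none passed on p alone, where 7.93% of all genes did. Their median log2 ratio was −0.41, that of the 7 tested members −0.28 and that of all genes −0.10. Akr1c6, picked here after its values were seen, had 18 reads in replicate 2 and 0 in replicate 1; it was too sparse to test, and the part of liver RNA in it was not tested.

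Of 20 steroid reductase and dehydrogenase genes of other families, 12 were tested, 3 were called higher in replicate 2 and none lower, against 2.26% of all genes called higher and 0.967% called lower. The 3 were Hsd11b1, which regenerates glucocorticoid (45 reads in replicate 2, 12 in replicate 1; Fisher's exact test, adjusted p = 0.00352), Hsd17b2 (38 reads in replicate 2, 0 in replicate 1; adjusted p = 5.54e-09) and Hsd17b13 (32 reads in replicate 2, 0 in replicate 1; adjusted p = 2.12e-07). The liver markers were higher in the same library. Hsd3b1, the 3-beta-hydroxysteroid dehydrogenase of the cortex, had 4927 CPM in replicate 2, against 8179 CPM in replicate 1 (log2 ratio −0.73), past the p threshold alone. Hsd17b10 had 203 CPM in replicate 2, against 179 CPM in replicate 1, Hsd17b4 had 120 CPM in replicate 2 and 131 in replicate 1, and Hsd3b7 had 109 CPM in replicate 2 and 77.0 in replicate 1; none of them was called. The median log2 ratio of the 12 was −0.08.

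Of 20 genes of aldehyde, carbonyl and polyol metabolism in other families, 17 were tested and 1 was called. Of all genes tested, 3.23% were called in either direction and 0.967% were called lower in replicate 2. Aldh1a1, a retinal dehydrogenase gene, was lower in replicate 2, with 10 reads there and 36 in replicate 1 (log2 ratio −2.04; Fisher's exact test, adjusted p = 0.000314). Adh1, the class I alcohol dehydrogenase gene, led the list with 3913 CPM in replicate 2, against 4657 CPM in replicate 1 (log2 ratio −0.25). Glo1 had 310 CPM in replicate 2, against 368 CPM in replicate 1, Aldh3b1 had 279 CPM in replicate 2 and 341 in replicate 1, and Adh5 had 261 CPM in replicate 2 and 353 in replicate 1. On p alone 4 were lower in replicate 2, against 4.1% of all genes, and the median log2 ratio over the 17 was −0.25.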

How the data were processed

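Long-read RNA-seq of 2 adrenal gland libraries was used. The deposited tables hold counts of reads per transcript model, with TALON class names per the file headers, on mm10 per the labels; the version of the counting program is not given in the sources used here. Spike-in models were left out, reads were summed per gene, and CPM was taken per 1000000 mouse reads (810818 in replicate 2 and 688436 in replicate 1). Genes holding 20 reads or more over the pair of libraries were compared by two-sided Fisher's exact test with Benjamini-Hochberg adjustment; log2 ratios had 0.5 CPM added. With 1 library on each side edgeR and DESeq2 tests could not be fitted, and only their scaling factors were used (edgeR 4.0.16, DESeq2 1.42.0, R 4.3.3; Python 3.11.15, scipy 1.17.1). Exons and model names came from the deposited annotation and GENCODE M21. New models were matched by intron chain. Coding sequences were aligned globally with Biopython 1.88, nucleotide identity standing in for the protein identity that had been planned. The comparison of genes and the test of shares were tried on simulated counts, and the other steps were not. Intervals cover counting error only. Alternatives were other scalings, read minimums, added CPM and model classes. All 10 members were named, with their models of at least 10 reads (at most 6 a gene), the 4 most abundant and any called genes of other lists, and the 3 most abundant of the marker lists that lead a statement. Members and lists were chosen with earlier results of these data known.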

Additional observations from a re-analysis of the deposited data

Results flagged for a closer look

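Reads on the strand opposite to a member were outside the comparisons above. New antisense models of 1 exon each held 8 reads opposite Akr1cl in replicate 2, against 3 in replicate 1, and 6 reads opposite Akr1a1 in replicate 2, against 3 in replicate 1. Both values in replicate 2 are above the 3 reads that a count of 0 allows. The other members had at most 3 such reads in a library.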

How the results depend on the processing

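All 68 alternative log2 ratios of the members kept their direction, and no member gained or lost its call, which needs both the p and the size; Akr1c18 ranged from −1.42 to −1.30 and Akr1cl from −0.82 to −0.53. Akr1c13, past the size threshold at 1.03 but not called, was under it at 0.95 with 2 CPM added, and Akr1a1 crossed the p threshold under the 3 settings given with it. The count of genes called was 267 (187 higher and 80 lower in replicate 2), 161 with at least 50 reads, where fewer genes were tested, and with DESeq2 size factors 256 (211 higher, 45 lower). From known models alone, with known reads as the total, the mean level was 227 CPM for Akr1b7, 133 CPM for Akr1b3, 796 CPM for Akr1a1, 106 CPM for Akr1b8, 8.998 CPM for Akr1c13 and 0.880 CPM for Pik3c2g. Counting incomplete matches as models raised the genes called for usage of the leading model to 72, against 10. The difference changed direction for 3 members: from 0.20 to −0.98 points for Akr1b3, from −0.60 to 0.48 for Akr1c18 and from 2.95 to −2.84 for Akr1b7. That of Akr1cl went from −3.86 to −10.005 points and was now called (Fisher's exact test, adjusted p = 1.93e-08). Those of Akr1a1 and Akr1b8 kept their direction. The cause of the 3 reversals was not tested. Leaving out 1 library leaves the level of the other, as given above. No paired analysis was possible because both libraries belong to 1 group. Depth limits Akr1c12, Akr1c14 and Pik3c2g, which had 9 or fewer reads in a library.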
